A study of Mus musculus with 6 samples.

Results

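The naive and memory T-cell programme was followed here through 9 genes of the 54532 in the expression table, namely Tcf7, Lef1, Klf2, S1pr1, Foxo1, Bach2, Id3, Myb and Satb1. They were chosen by gene symbol, and each symbol matched 1 row of the table. The RNA came from mouse T cells after they had shared a culture with ID8, a cell line of mouse ovarian cancer. There were 3 libraries from T cells co-cultured with ID8 cells that had been pretreated with cisplatin (40 µM by the labels), referred to as cisplatin, and 3 from T cells co-cultured with PBS-pretreated ID8 cells, referred to as control. All 6 libraries came from spleen T cells of C57BL/6 mice, 6 to 8 weeks old, which were enriched with a pan T-cell isolation kit. Before the co-culture these cells had been activated with anti-CD3/28 beads for 72 h, in the presence of IL-2 at 10 ng/mL. No library of T cells that had not been activated was analysed here. The question addressed was whether tumour cells exposed to cisplatin change the state of the T cells beside them.

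Naive and central memory T cells circulate through blood and lymph nodes and hold effector differentiation in check. TCF-1 (the product of Tcf7) and LEF1 are DNA-binding partners of β-catenin that keep the capacity for self-renewal, and SATB1 organises chromatin in the T lineage. FOXO1 is held in the cytoplasm when PI3K and AKT signal downstream of the T-cell receptor. When it enters the nucleus it drives Klf2, and KLF2 in turn drives S1pr1, whose product lets T cells leave lymph nodes. BACH2, ID3 and MYB restrain terminal effector differentiation and support memory or stem-like cells. Most of these genes fall when T cells become full effectors. Several of them, among them Foxo1, Klf2, S1pr1, Bach2 and Satb1, are also expressed by B cells.

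All 9 genes were higher in the cisplatin libraries, and for each of them all 3 cisplatin libraries lay above all 3 control libraries. In a limma fit across 15874 genes, 9 of 9 rose at an adjusted p-value below 0.05 and 0 fell, against 27.5% of all tested genes that rose and 29.0% that fell. All cisplatin libraries lay above all control libraries for 31.9% of the tested genes. Only Myb also passed a 2-fold change, which 4.11% of the tested genes did in the upward direction. The median log2 fold change of the 9 genes was 0.62, beside 0.03 over all tested genes. The libraries differed in depth by little, with 30606569 to 32169496 reads on genes, and replicates were neither identical nor within sampling noise of each other. The study's text describes its RNA-seq replicates as biological, but neither it nor the labels tie a library to a mouse or a culture, and the p-values measure the spread between these libraries.

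Genes that mark T cells as such rose too. All 26 T-cell identity genes (Cd3e, Trac, Lck, Cd4, Cd8a and others) passed the test upwards, with a median log2 fold change of 0.61 and a range of 0.19 to 1.09. Their summed level was 2896 to 2983 FPKM in the cisplatin libraries and 1809 to 1945 FPKM in the control libraries. FPKM are fragments scaled by gene length and library size, so levels of genes of different length can be compared. Markers of the other cells in the culture moved as well. The 12 B-cell markers summed to 3652 to 3727 FPKM in cisplatin and 1714 to 1802 FPKM in control, although the isolation kit is designed to remove B cells. Most of that sum was Ighm, the immunoglobulin heavy chain gene (3220 ± 46.7 against 1433 ± 38.0 FPKM), and the other 11 markers summed to 453.4 to 488.6 against 318.6 to 333.2 FPKM. Of the 12, 10 passed the test upwards and 1 downwards, Ms4a1 and Blk by 0.96 and 0.86, with a median log2 fold change of 0.46, and on the relative scale defined below 4 were higher and 5 lower. The 12 myeloid markers summed to 159.6 to 181.8 against 124.4 to 130.5 FPKM, with S100a8 and S100a9 at 0 reads in some libraries. Of 10 tested, 7 were higher, 6 of them by 2-fold, and 2 were lower, with a median of 1.24. C1qb, a complement gene of macrophages, and the lysozyme gene Lyz2 rose by 2.75 and 1.54, while Mpeg1 and Cd14 fell by 0.81 and 0.47. Without Lyz2 the sum went the other way, with the other 11 myeloid markers at 79.03 to 84.63 FPKM in cisplatin and 93.72 to 97.91 FPKM in control. The 6 NK-cell markers summed to 45.06 to 50.03 against 32.29 to 34.52 FPKM, most of it the granzyme gene Gzma, and 2 of 5 tested were higher. The 20 ID8 tumour-cell markers summed to 252.7 to 259.6 FPKM in cisplatin and 1675 to 1761 FPKM in control, with 15 of 17 tested passing downwards, and the keratin gene Krt19 fell by 3.61. The part of these other cells in the results below was not tested. In libraries of mixed cells, more T cells and more of a transcript per T cell cannot be told apart. Each gene was therefore also compared after each library was centred on the mean log2 level of the 26 T-cell identity genes, and the difference on that scale is called relative below. The centring shifted the median of all tested genes from 0.03 to -0.58 on the log2 scale. Relative to the T-cell identity genes, 2 of the 9 genes were higher (Myb and Satb1), 2 were lower (Klf2 and Foxo1) and 5 passed in neither direction, while 4.33% of all tested genes were higher and 67.9% lower. On the same scale 7 of the 26 T-cell identity genes were themselves higher, 9 were lower and 10 passed in neither direction.

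**Figure D1:**
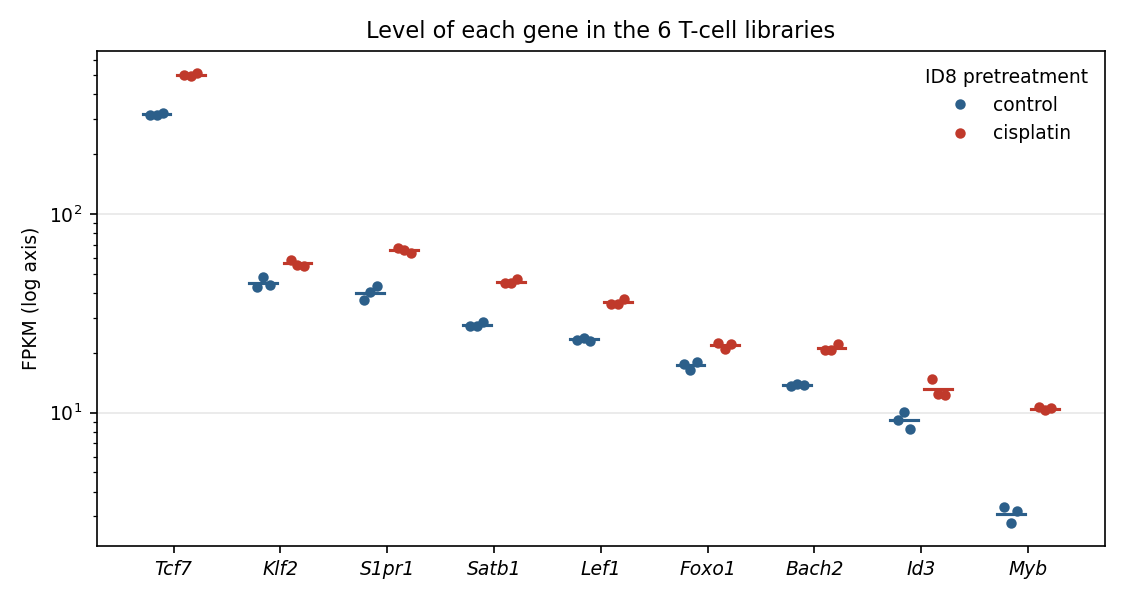
Level of each of the 9 genes in FPKM (vertical log axis) in the 3 control (blue) and 3 cisplatin (red) libraries, 1 point per library, with a bar at each group mean. For every gene the cisplatin points lie above the control points, from Tcf7 at 313 to 512 FPKM to Myb at 2.77 to 10.7 FPKM.

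**Figure D2:**
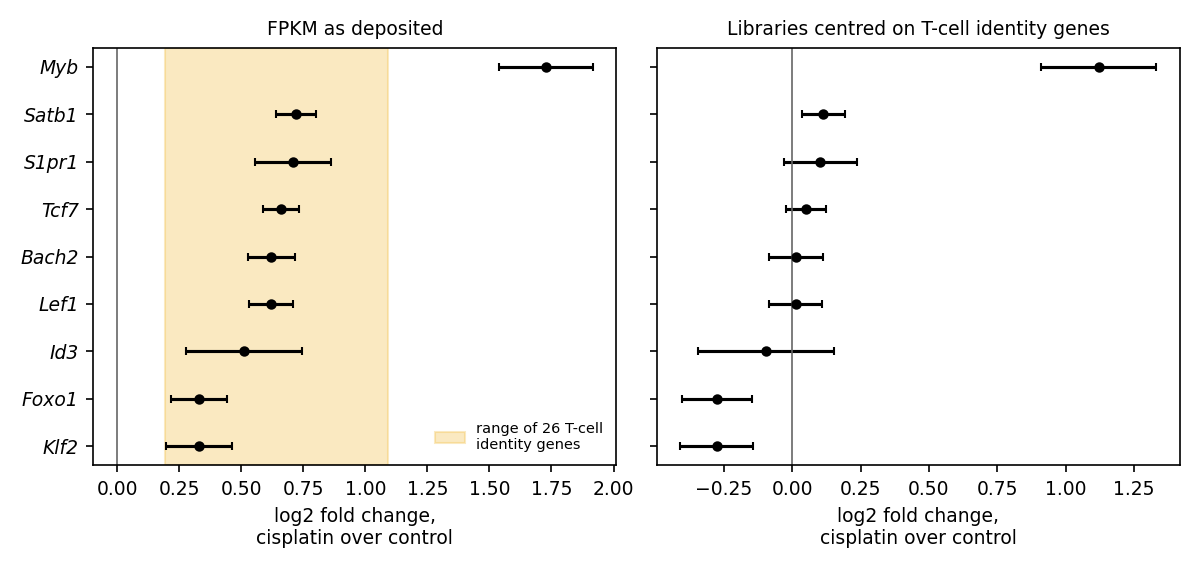
Log2 fold change of each gene, cisplatin over control, with its 95% confidence interval from limma (3 libraries per group), from the FPKM as deposited (left, with the range of the 26 T-cell identity genes shaded) and after centring each library on those genes (right). The change of Myb lies above the shaded range, and the estimates of Klf2, Foxo1 and Id3 turn from above 0 on the left to below 0 on the right.

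The sequences upstream of 4 of the genes are shown because these genes passed the test on the relative scale in either direction. Only Myb rose by more than every T-cell identity gene, and the changes of Satb1, Klf2 and Foxo1 lay within the range of those genes. They are RefSeq sequences of GRCm38.p6, ending at the base before the gene's start in the table, 5′ to 3′ on the strand of the gene. Capitals mark the matches to the motifs searched.
Myb (chr10:21160985-21161234, minus strand): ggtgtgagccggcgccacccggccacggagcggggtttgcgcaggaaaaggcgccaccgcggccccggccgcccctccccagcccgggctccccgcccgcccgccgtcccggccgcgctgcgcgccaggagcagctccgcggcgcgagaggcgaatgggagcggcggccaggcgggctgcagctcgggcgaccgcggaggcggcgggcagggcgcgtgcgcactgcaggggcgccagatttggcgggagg
Satb1 (chr17:51833291-51833540, minus strand): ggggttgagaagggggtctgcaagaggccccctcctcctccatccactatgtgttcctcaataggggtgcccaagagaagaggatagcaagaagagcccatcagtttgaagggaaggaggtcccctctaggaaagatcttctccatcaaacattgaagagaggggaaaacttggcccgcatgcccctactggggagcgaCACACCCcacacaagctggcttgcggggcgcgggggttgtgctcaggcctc
Klf2 (chr8:72318812-72319032, plus strand): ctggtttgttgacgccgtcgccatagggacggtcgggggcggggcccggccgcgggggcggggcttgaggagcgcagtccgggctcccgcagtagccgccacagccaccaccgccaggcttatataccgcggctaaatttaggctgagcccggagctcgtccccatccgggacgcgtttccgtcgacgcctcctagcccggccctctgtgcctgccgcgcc
Foxo1 (chr3:52268087-52268335, plus strand): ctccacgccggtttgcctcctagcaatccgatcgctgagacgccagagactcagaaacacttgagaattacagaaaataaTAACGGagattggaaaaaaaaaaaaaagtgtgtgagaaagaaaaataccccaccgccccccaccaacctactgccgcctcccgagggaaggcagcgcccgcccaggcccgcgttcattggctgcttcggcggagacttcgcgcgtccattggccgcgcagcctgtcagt
RefSeq gave a window upstream of its own start for 8 of the 9 genes, S1pr1 being the exception. That start lay 178631 bases from the start in the table for Bach2, 325 for Id3 and 148 for Lef1. The windows of Bach2 and Id3 therefore lie within the gene as the table places it. Within 250 bases upstream of the RefSeq start and on both strands, the letters searched were TGTTTAC for FOXO factors, CTTTGA for TCF and LEF factors, CACACCC for KLF factors, TAACNG for MYB and CAGGTG for an E-box, and no match of these overlapped another. TAACNG was found upstream of 3 of the 8 genes (18.7% of 20482 genes), among them Foxo1, where it begins at position -170 from the start. CACACCC was found upstream of 2 (7.13% of genes), among them Satb1, at position -51. CTTTGA was found upstream of 1 (13.5% of genes), and TGTTTAC and CAGGTG upstream of 0 (2.76% and 16.8% of genes). The CTTTGA match was in the window of Bach2. The other TAACNG matches were in those of Lef1 and Id3, and the other CACACCC match in that of Id3. The windows of Myb and Klf2 held none of the 5 motifs. The share of G and C in the 8 windows ran from 50.4% (Bach2) to 81.2% (Myb), beside a median of 54.4% over the 20482 genes. A match of letters is a description and not a binding site.

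Tcf7 (ENSMUSG00000000782, chr11:52252371-52283014, minus strand, GRCm38) was by far the most abundant of the 9. Its level was 499, 494 and 512 FPKM in cisplatin libraries 1 to 3 and 316, 313 and 323 FPKM in control libraries 1 to 3. The groups were far apart compared with the spread within either (501 ± 9.21 against 318 ± 5.02 FPKM, SD, n = 3 each). Tcf7 rose by a log2 fold change of 0.66 (SE 0.030, 95% CI 0.59 to 0.73, limma adjusted p = 4.6e-06). This was more than the rise of 15 of the 26 T-cell identity genes and less than that of the others, and the relative difference of 0.05 did not pass (limma adjusted p = 0.17, 95% CI -0.02 to 0.13). It did pass, at 0.14, when libraries were centred on the median T-cell identity gene in place of the mean (limma adjusted p = 0.017). The counts do not separate the long form of TCF-1, which binds β-catenin, from the short form.

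Lef1 (ENSMUSG00000027985, chr3:131110471-131224356, plus strand), the other TCF family member with a role in naive T cells, was at 35.3, 35.1 and 37.3 FPKM in cisplatin and 23.3, 23.9 and 22.9 FPKM in control. It rose by 0.62 on the log2 scale (SE 0.037, limma adjusted p = 1.6e-05), and all 3 cisplatin libraries were higher. Relative to the T-cell identity genes the difference was 0.01 (95% CI -0.08 to 0.11, limma adjusted p = 0.79), and its sign turned when cisplatin 3 or control 3 was left out (-0.01 in both). Within each library the ratio of Lef1 to Tcf7 had a mean log2 value of -3.80 in cisplatin and -3.77 in control, and the groups overlapped.

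The relatives Tcf7l1 and Tcf7l2, which act mainly in epithelial and stem cells, were far lower than either. Tcf7l1 was at 0.73 ± 0.052 FPKM in cisplatin and 2.95 ± 0.180 FPKM in control, and Tcf7l2 at 0.43 ± 0.058 against 1.86 ± 0.211 FPKM (SD, n = 3). Both fell by 1.88 on the log2 scale (limma adjusted p = 2.5e-05 and 0.0002), while the ID8 tumour-cell markers fell by a median of 2.31 and the part of ID8 RNA in these values was not tested. Of 15 tested TCF and LEF partners and Wnt feedback genes, 5 were higher and 5 lower, with a median log2 fold change of 0.03, and on the relative scale 0 were higher and 13 lower. Of all tested genes 27.5% were higher and 29.0% lower, near the shares of this list on the FPKM scale. On the relative scale 4.33% of all tested genes were higher and 67.9% lower. The counts of the lists below stand beside the same shares. The co-repressor genes Hdac1 and Ctbp1 and the cofactor gene Pygo2 rose by 0.25, 0.17 and 0.15 on the FPKM scale, with relative estimates of -0.36, -0.44 and -0.46. Ctnnb1, which encodes β-catenin, fell by 0.45 (83.6 ± 1.83 FPKM in control, 61.0 ± 1.44 in cisplatin, limma adjusted p = 3.2e-05). The β-catenin cofactor genes Bcl9l and Bcl9 fell by 1.12 and 0.71, and the co-repressor gene Tle4 by 0.47. Axin2, a feedback target of β-catenin and TCF, rose by 0.48 (2.19 ± 0.069 to 3.08 ± 0.034 FPKM, limma adjusted p = 0.002), and its relative estimate was -0.13 (limma adjusted p = 0.18).

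Satb1 (ENSMUSG00000023927, chr17:51736187-51833290, minus strand), the chromatin organiser, was at 45.1, 45.1 and 46.8 FPKM in cisplatin and 27.2, 27.4 and 28.5 FPKM in control. The rise of 0.72 (SE 0.034, 95% CI 0.64 to 0.80, limma adjusted p = 5e-06) was the second largest of the 9. Relative to the T-cell identity genes Satb1 was higher by 0.11 (95% CI 0.04 to 0.19, limma adjusted p = 0.017). That relative call was lost without cisplatin 3 (0.10, limma adjusted p = 0.063) and without control 2 (0.10, limma adjusted p = 0.059). The log2 ratio of Satb1 to Tcf7 was -3.47 to -3.45 in the cisplatin libraries and -3.54 to -3.51 in the control libraries, without overlap.

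Foxo1 (ENSMUSG00000044167, chr3:52268336-52353221, plus strand) was at 22.3, 20.9 and 22.1 FPKM in cisplatin and 17.5, 16.5 and 17.9 FPKM in control. All 3 cisplatin libraries were higher, but by less than for most of the 9 genes. Foxo1 rose by 0.33 on the FPKM scale (SE 0.047, 95% CI 0.22 to 0.44, limma adjusted p = 0.001) and was lower by -0.28 relative to the T-cell identity genes (95% CI -0.40 to -0.15, limma adjusted p = 0.0027). Only 2 of the 26 T-cell identity genes rose by less. Its relatives Foxo3 and Foxo4, which bind the same DNA motif, went the other way on the FPKM scale. Foxo3 fell by 0.31 (21.9 ± 0.418 to 17.6 ± 0.527 FPKM, limma adjusted p = 0.00043) and Foxo4 by 0.21 (11.9 ± 0.693 to 10.2 ± 0.368 FPKM, limma adjusted p = 0.018). The log2 ratio of Foxo1 to Foxo3 was below 0 in every control library (-0.44 to -0.26) and above 0 in every cisplatin library (0.20 to 0.38).

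Klf2 (ENSMUSG00000055148, chr8:72319033-72321656, plus strand), a target of FOXO1, was at 59.0, 55.6 and 54.8 FPKM in cisplatin and 42.7, 48.3 and 43.7 FPKM in control. Klf2 rose by 0.33 on the FPKM scale (SE 0.056, 95% CI 0.20 to 0.46, limma adjusted p = 0.0022) and was lower by -0.28 relative to the T-cell identity genes (limma adjusted p = 0.0034). Centred on the median T-cell identity gene, the relative difference was -0.19 and did not pass (limma adjusted p = 0.062). The rise of Klf2 and that of Foxo1 were of nearly the same size.

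S1pr1 (ENSMUSG00000045092, chr3:115710433-115715072, minus strand), a target of KLF2 that encodes the exit receptor, was at 67.6, 65.6 and 63.8 FPKM in cisplatin and 36.7, 40.3 and 43.5 FPKM in control. It rose by 0.71 (SE 0.064, 95% CI 0.56 to 0.86, limma adjusted p = 0.00011), the third largest rise of the 9. The relative difference of 0.10 did not pass (limma adjusted p = 0.14), although it did without control 3 (0.15, limma adjusted p = 0.036) and with centring on the median T-cell identity gene (0.19, limma adjusted p = 0.041). S1pr1 and Klf2 changed places in the order of levels. The log2 ratio of S1pr1 to Klf2 was -0.26 to -0.0048 in control and 0.20 to 0.24 in cisplatin, a shift of 0.38 that gave an exact permutation p = 0.1.

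Among the relatives of Klf2, Klf4 fell by 2.43 (54.5 ± 1.44 to 10.1 ± 0.252 FPKM, limma adjusted p = 8.3e-08) and Klf3 by 0.61 (12.5 ± 0.490 to 8.18 ± 0.099 FPKM, limma adjusted p = 4.2e-05). Both encode zinc finger factors that bind the same CACCC-type DNA elements as KLF2. Klf13 rose by 0.40 on the FPKM scale and was lower by -0.21 relative to the T-cell identity genes (limma adjusted p = 0.00048 and 0.0029). S1pr4, the other S1P receptor that is abundant in T cells, went from 50.7 ± 2.88 to 75.8 ± 0.901 FPKM, a log2 rise of 0.58 (limma adjusted p = 5.4e-05), with a relative estimate of -0.03 that did not pass (limma adjusted p = 0.68). Its ratio to S1pr1 overlapped between the groups. Of the 13 tested genes of the S1P axis, 6 were higher and 5 lower (relative scale, 0 and 11). Grk2, the kinase that desensitises S1PR1, rose by 0.63 on the FPKM scale, with a relative estimate of 0.02 that did not pass (limma adjusted p = 0.55). Sgpl1, the S1P lyase gene, rose by 0.30 on the FPKM scale with a relative estimate of -0.30. Cd69, whose product removes S1PR1 from the surface of activated T cells, rose by 0.35 on the FPKM scale and was lower by -0.26 relative to the T-cell identity genes (4.06 ± 0.245 to 5.18 ± 0.169 FPKM, limma adjusted p = 0.0048 and 0.011). Spns2, the S1P exporter of endothelial cells, fell by 1.85, Plpp1, which dephosphorylates extracellular S1P, by 1.79, and the membrane linker gene Ezr by 0.84.

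Of 18 tested genes that control FOXO1 or are its targets, 10 were higher and 5 lower, with a median of 0.14. Pik3cd, the PI3K subunit that acts in lymphocytes, rose by 0.68, and Pik3ip1, a PI3K inhibitor, by 0.57. The FOXO target Sesn1 rose by 0.53. Sgk1, a kinase that phosphorylates FOXO factors, fell by 1.30 (13.5 ± 0.181 to 5.44 ± 0.13 FPKM, limma adjusted p = 1.1e-06), Rictor, a subunit of mTORC2, by 0.44 and Cdkn1b, a cell-cycle inhibitor driven by FOXO factors, by 0.29. Relative to the T-cell identity genes, 1 of the 18 was higher and 14 were lower, and the estimates of Pik3ip1 and Sesn1 were -0.04 and -0.07.

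Bach2 (ENSMUSG00000040270, chr4:32238804-32586108, plus strand), a repressor that competes with AP-1 at effector genes, was at 20.7, 20.8 and 22.1 FPKM in cisplatin and 13.6, 13.9 and 13.7 FPKM in control. It rose by 0.62 (SE 0.040, 95% CI 0.53 to 0.72, limma adjusted p = 2e-05), the median of the 9, and the relative difference was 0.01 (95% CI -0.08 to 0.11, limma adjusted p = 0.78). Without cisplatin 3 the relative estimate was -0.01. Its paralogue Bach1, a haem-sensing repressor, fell by 0.37 (11.3 ± 0.037 to 8.70 ± 0.385 FPKM, limma adjusted p = 0.0006). Set against Bach1, Bach2 had a log2 ratio of 0.28 to 0.30 in control and 1.21 to 1.42 in cisplatin. Prdm1, which encodes BLIMP-1 and is repressed by BACH2, was at 3.75 ± 0.318 FPKM in control and 4.96 ± 0.087 FPKM in cisplatin. Prdm1 rose by 0.40 on the FPKM scale (limma adjusted p = 0.0045) and had a relative estimate of -0.21 (limma adjusted p = 0.068). The Bach2 to Prdm1 log2 ratio was 1.74 to 2.01 in control and 2.05 to 2.14 in cisplatin, without overlap.

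Id3 (ENSMUSG00000007872, chr4:136143497-136145755, plus strand), an inhibitor of E proteins, was at 14.7, 12.4 and 12.3 FPKM in cisplatin and 9.21, 10.04 and 8.28 FPKM in control. With 455 to 851 reads per library it was the least deeply counted of the 9, and its spread was the widest in proportion. Id3 rose by 0.51 on the FPKM scale (SE 0.097, 95% CI 0.28 to 0.74, limma adjusted p = 0.0039), and its relative estimate was -0.10, with an interval on both sides of 0 (95% CI -0.34 to 0.15, limma adjusted p = 0.44). That estimate was -0.19 without cisplatin 1, -0.18 without control 3 and -0.036 to -0.074 without any other library, and passed in none of these. Id2, the paralogue that goes with effector cells, was at 23.9 ± 1.24 FPKM in control and 26.5 ± 2.55 FPKM in cisplatin. On the FPKM scale Id2 did not pass (0.15, limma adjusted p = 0.15), and its relative estimate was -0.46 (limma adjusted p = 0.00083). Set against Id2, Id3 had a log2 ratio of -1.51 to -1.31 in control and -1.21 to -0.69 in cisplatin, without overlap. Of 11 tested E proteins and BACH partners, 2 were higher and 8 lower (relative scale, 1 and 9). The E protein gene Tcf3 rose by 0.53 on the FPKM scale, with a relative estimate of -0.08 (limma adjusted p = 0.087), and the AP-1 gene Batf3 rose by 0.94. Maff, which encodes a small MAF partner of BACH factors, fell by 1.92, Hmox1, a gene repressed by BACH1, by 1.75 and Jun by 0.91.

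Myb (ENSMUSG00000019982, chr10:21124935-21160984, minus strand) changed most. Its level was 10.7, 10.2 and 10.5 FPKM in cisplatin and 3.34, 2.77 and 3.18 FPKM in control, from 3033 to 3081 and 742 to 896 reads. The groups lay far apart compared with the spread within either (10.5 ± 0.206 against 3.10 ± 0.295 FPKM, SD, n = 3 each). Myb rose by 1.73 on the log2 scale (SE 0.079, 95% CI 1.54 to 1.92, limma adjusted p = 4.5e-06), which is a 3.38-fold difference in mean level. All 26 T-cell identity genes rose by less, and relative to them Myb was higher by 1.12 (95% CI 0.91 to 1.33, limma adjusted p = 2.6e-05). Of the 15874 tested genes 1.09% rose by more, and none of the other tested genes with a transcription factor family in the table did, of 863 in all. Its relatives Mybl2, which acts in dividing cells, and Mybl1 rose by 0.53 and 0.74 (limma adjusted p = 0.00062 and 0.0029), and their relative estimates were -0.07 and 0.13 (limma adjusted p = 0.43 and 0.4). Set against Mybl2, Myb had a log2 ratio below 0 in every control library (-0.28 to -0.12) and 1.01 to 1.04 in cisplatin. MYB is also expressed by dividing progenitor cells. Of 12 cell-cycle genes 7 were higher and 1 was lower (relative scale, 1 and 9). Of all tested genes 27.5% were higher and 29.0% lower (relative scale, 4.33% and 67.9%). The median of the cell-cycle genes was 0.30, with summed levels of 251.2 to 257.9 FPKM in cisplatin and 198.8 to 199.6 FPKM in control. Rrm2 rose by 1.05 and Mki67 by 0.62, and E2f1 fell by 0.39. The part of cell division in the level of Myb was not tested.

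In the control libraries the order of mean levels was Tcf7, Klf2, S1pr1, Satb1, Lef1, Foxo1, Bach2, Id3 and Myb, and among neighbours only Klf2 and S1pr1 overlapped. In the cisplatin libraries it was Tcf7, S1pr1, Klf2, Satb1, Lef1, Foxo1, Bach2, Id3 and Myb, and among neighbours only Foxo1 and Bach2 overlapped. Ratios taken within a library do not depend on how libraries were scaled. Of the 8 ratios to Tcf7, those of Klf2, Foxo1, Myb and Satb1 did not overlap between the groups, and those of Lef1, S1pr1, Bach2 and Id3 did. The log2 ratio to Tcf7 was lower in cisplatin by -0.33 for Klf2 and by -0.33 for Foxo1, and higher by 1.10 for Myb and by 0.06 for Satb1. In all, 19 ratios were compared and 13 did not overlap. Each of these had a two-sided exact permutation p = 0.1, the smallest that 3 against 3 libraries allow (0.146 after adjustment over the 19), so no ratio could reach 0.05. The share of non-overlapping ratios over all tested genes was not computed, so the counts of ratios stand without a background. Of all tested genes 11.9% rose by more than Tcf7.

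**Figure D3:**
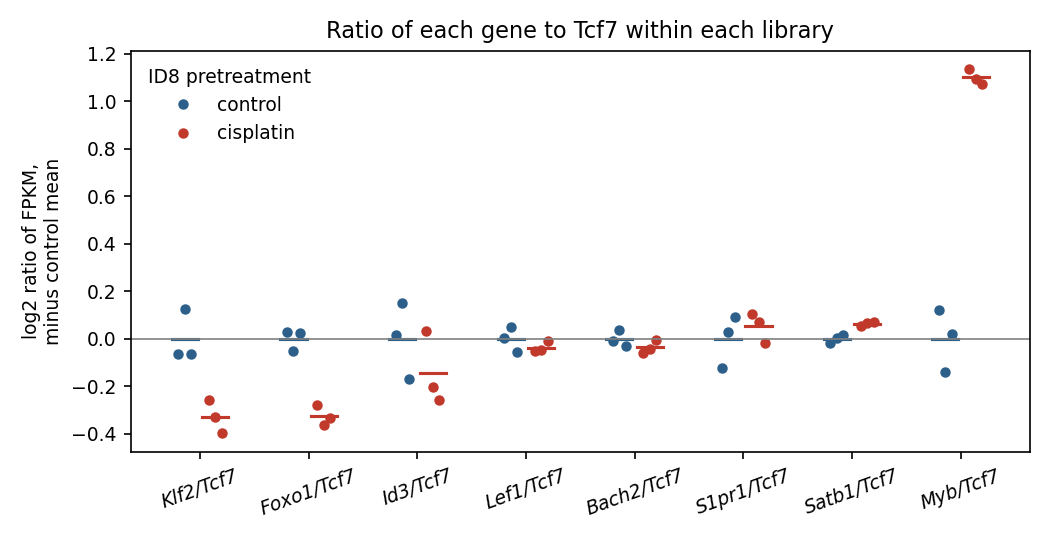
Log2 ratio of the FPKM of 8 genes to that of Tcf7 in the same library, minus the mean of the control libraries (3 control libraries in blue, 3 cisplatin libraries in red, bars at group means). Klf2 and Foxo1 sit near -0.33 in the cisplatin libraries and Myb near 1.10, while Lef1, Bach2, S1pr1 and Id3 overlap with control.

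Surface genes of naive and memory cells were counted next. Of 20 tested, 14 were higher and 5 lower, with a median log2 fold change of 0.36, and relative to the T-cell identity genes 5 were higher and 11 lower. Ccr7, the lymph node homing chemokine receptor, was at 243, 242 and 242 FPKM in cisplatin and 165, 162 and 179 FPKM in control. Ccr7 rose by 0.52 on the FPKM scale, with a relative estimate of -0.09 that did not pass (limma adjusted p = 6.8e-05 and 0.094). Il7r, the IL-7 receptor chain that sustains naive and memory cells, rose by 0.61, with a relative estimate of 0.0028 (limma adjusted p = 6.1e-06 and 0.95). The largest rises were those of the chemokine receptor gene Cxcr3 (1.003), the integrin gene Itga4 (0.83) and Slamf6, a marker of stem-like T cells (0.80), and all 3 were higher relative to the T-cell identity genes as well. Ly6c1 fell by 0.69, and Igfbp4 and Actn1, which are high in naive cells, fell by 0.55 and 0.51.

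Effector genes were counted in the same way. Of 16 tested effector differentiation genes 11 were higher and 2 lower, with a median of 0.40, and on the relative scale 2 were higher and 8 lower. The activation factors Irf4 and Batf rose by 0.98 and 0.97, and both were higher relative to the T-cell identity genes (0.37 and 0.36). Il2ra, the high-affinity IL-2 receptor chain, rose by 0.61, with a relative estimate of 0.0034. Tbx21, which encodes T-bet, rose by 0.59 on the FPKM scale, with a relative estimate of -0.02 (limma adjusted p = 0.00052 and 0.82). The log2 ratio of Tcf7 to Tbx21 was 4.79 to 4.99 in control and 4.83 to 5.09 in cisplatin, and the groups overlapped. Zeb2, a factor of terminal effector cells, was low and fell by 0.53 (2.33 ± 0.043 to 1.59 ± 0.043 FPKM, limma adjusted p = 0.003), and the perforin gene Prf1 fell by 0.25. Eomes, a T-box factor of memory and cytotoxic cells, rose by 1.05 from a low level (1.33 ± 0.159 to 2.86 ± 0.056 FPKM, limma adjusted p = 0.0003). Its relative estimate was 0.45 (limma adjusted p = 0.01). Eomes was counted with the NK-cell markers and with the restraint factors below, not with the effector genes.

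Of 20 quiescence and T-cell restraint factors, 11 were higher and 3 lower, with a median of 0.25, and on the relative scale 2 were higher and 15 lower. Slfn2, Bcl11b and Btg1, which keep resting T cells quiescent or hold T-cell identity, rose by 0.71, 0.64 and 0.54 on the FPKM scale. Their relative estimates were 0.10, 0.04 and -0.06 (limma adjusted p = 0.046, 0.36 and 0.16). Tob1, an antiproliferative gene of resting T cells, fell by 1.08 (41.5 ± 1.31 to 19.6 ± 1.5 FPKM, limma adjusted p = 1.1e-05). Txnip, a brake on glucose uptake, fell by 0.94 (210 ± 3.18 to 109 ± 0.737 FPKM, limma adjusted p = 4.9e-07), and Runx1 fell by 0.62. Bcl6, a repressor that opposes BLIMP-1, did not pass on the FPKM scale (-0.17, limma adjusted p = 0.13), and its relative estimate was -0.78 (limma adjusted p = 0.00026). Of the 17 tested relatives of the 9 genes, 4 were higher and 10 lower, with a median of -0.21, and relative to the T-cell identity genes 14 were lower and 0 higher. Of the 863 tested genes with a transcription factor family, 31.5% were higher, with a median of 0.04.

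**Figure D4:**
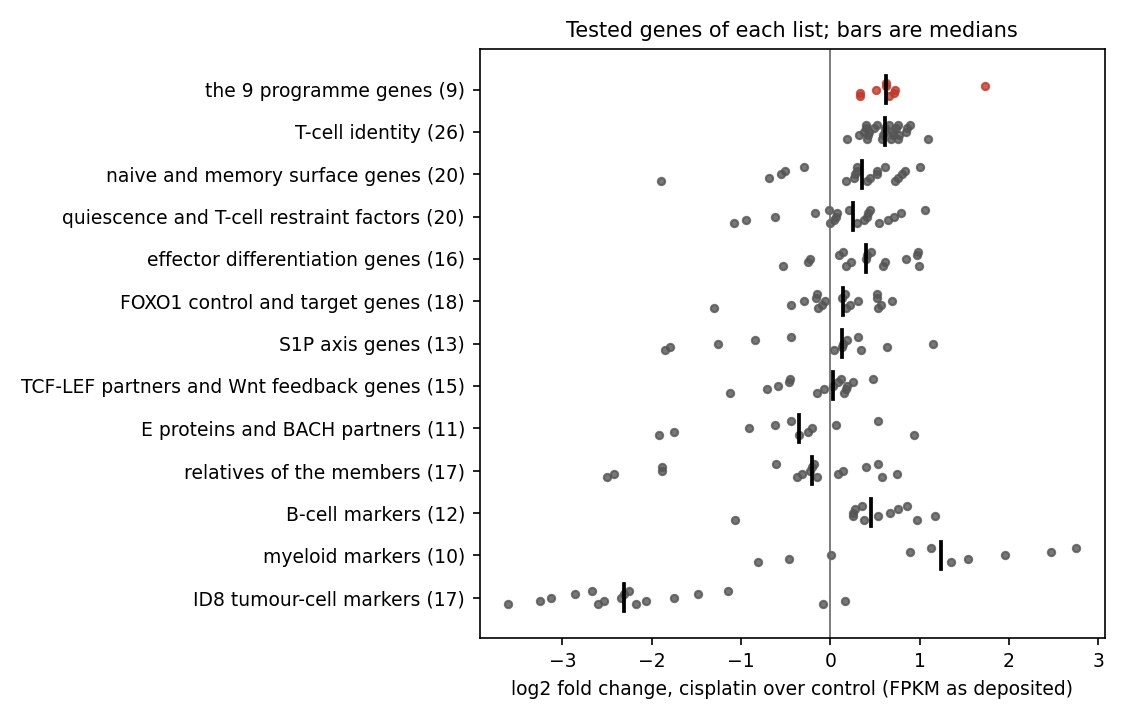
Log2 fold change, cisplatin over control, from the FPKM as deposited, with 1 point per tested gene and a black bar at the median of each list (number of tested genes in brackets). The 9 genes (red) have a median of 0.62 and the T-cell identity genes one of 0.61, while the ID8 tumour-cell markers have a median of -2.31.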

How the data were processed

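Per the labels, mRNA was purified with poly-T beads and libraries were made with random primers. The authors deposited 1 table of FPKM values, that is, read counts scaled to gene length and to a factor of each library. The submitters' processing notes name fastp, HISAT2 2.0.5, featureCounts 1.5.0-p3 and mm10 (GRCm38), whereas the study's methods name LifeScope. Whether reads were counted by strand is not given in the sources used here. The gene length in the table was used as it stands. Groups and replicate numbers came from the labels, and 0 other sample columns were present.

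FPKM times gene length was a whole multiple of 1 step per library for 100% of values (tolerance 0.1 read), which gave the depth. The main fit used limma 3.58.1 (R 4.3.3; lmFit, eBayes with trend) on log2(FPKM + 0.1) for genes that averaged 0.5 FPKM or more, with Benjamini-Hochberg adjustment over all of them and calls at an adjusted p-value under 0.05. The study's own count model was not rerun, since the deposited unit is FPKM, and limma's voom on the rebuilt reads was run as an alternative. On this log scale the changes of genes near the pseudocount come out too small. Ratios were tested by exact permutation (scipy 1.17.1, python 3.11.15). Scripts were tested on simulated data. Values are mean ± SD. Same-numbered replicates did not deviate together (correlations -0.063 to 0.0229). The denominator behind the FPKM was 1.04 times the reads on genes in cisplatin and 0.980 times in control, so a scaling to these reads was tried as well.

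The 9 genes, the gene lists, the tests and the alternatives were chosen with earlier results of these data known. All 9 genes were named. Others could be named, though not all were, if they were among a list's 3 largest rises and falls that passed and reached a group mean of 5 FPKM, were paired by role with the 9 (relatives, Ccr7, Il7r, Cd69, Id2, Tbx21, Prdm1, Zeb2, Bcl6, Eomes) or overlapped them. Ctnnb1, Axin2 and a few markers named as examples or for reads at 0 fell outside this rule and were named after their values were seen. Some genes of the lists are counted but not reported by name. Coordinates are those of the table. Promoter windows were RefSeq sequences (GRCm38.p6).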

Additional observations from a re-analysis of the deposited data

How the results depend on the processing

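Outside the centring on T-cell identity genes, 153 of 153 values of the 9 genes kept their direction and their side of the threshold over 17 alternative settings (other pseudocounts, filters, scalings, TPM, voom on rebuilt reads, no trend, the replicate block and leaving out each library), with limma adjusted p from 3.2e-18 to 0.014. With the replicate block, Klf2 kept its log2 fold change of 0.33 (limma adjusted p = 0.0085) and no call of the 9 genes changed, although same-numbered libraries share only a number. Centring on the T-cell identity genes turned Klf2 to -0.28, Foxo1 to -0.28 and Id3 to -0.10, and left Tcf7 at 0.051, S1pr1 at 0.10, Lef1 at 0.013 and Bach2 at 0.014, so that 2 genes were higher and 2 lower in place of 9 and 0. With centring on the median T-cell identity gene, an alternative chosen after seeing the data, 4 genes were higher and 1 lower, with Tcf7 at 0.14, S1pr1 at 0.19 and Klf2 at -0.19. Leaving out 1 library at a time, also added after seeing the data, moved the relative differences between -0.013 and 0.034 for Lef1, between -0.013 and 0.032 for Bach2, between -0.19 and -0.036 for Id3, between 0.056 and 0.15 for S1pr1 and between 0.10 and 0.13 for Satb1, and the number of genes higher relative to the T-cell identity genes between 1 and 3. Over all tested genes, 4360 were higher and 4603 lower in the deposited FPKM, 5884 and 3841 after quantile normalization (median log2 fold change 0.16), 5303 and 4082 when scaled to the rebuilt reads (median 0.11), 5879 and 4747 with voom on rebuilt reads, 3156 and 2893 with a minimum of 5 FPKM, and 687 and 10780 when centred. By 2-fold, 653 were higher in the deposited FPKM, 311 with a pseudocount of 1, 242 with a minimum of 5 FPKM, 133 when centred and 1127 with voom. The cause of these shifts was not tested. Read number limits Id3 most of the 9 genes, with 455 reads in its lowest library.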

Other observations

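The table lists 16 further transcripts whose coordinates overlap 6 of the 9 genes, 10 on the same strand and 6 on the other. Of these 12 were tested, and 11 were higher and 0 lower in cisplatin, with a median log2 fold change of 1.001, where 27.5% of all tested genes were higher. For all 12 the 3 cisplatin libraries lay above the 3 control libraries, as for 31.9% of all tested genes. Gm26551, a lincRNA that overlaps Tcf7 on the same strand, rose from 2.26 ± 0.241 to 4.97 ± 0.840 FPKM (log2 fold change 1.10, limma adjusted p = 0.00072), and A630014C17Rik, on the other strand of Tcf7, rose by 0.91 (limma adjusted p = 0.00082). E430014B02Rik, which lies within Satb1, rose by 1.14 (1.72 ± 0.182 to 3.92 ± 0.543 FPKM, limma adjusted p = 0.00041), against 0.72 for Satb1 itself. Bach2os, antisense to Bach2, rose by 1.41 from 14 to 36 reads in control to 77 to 83 reads in cisplatin (limma adjusted p = 0.0085), and Bach2it1, which lies within Bach2, rose by 1.06 (limma adjusted p = 0.048). Gm26577, antisense to Myb, had 25 to 58 reads in cisplatin and 0 to 12 in control and was too low to be tested. Relative to the T-cell identity genes, Gm26551 and E430014B02Rik were higher (0.49 and 0.53, limma adjusted p = 0.015 and 0.011), while A630014C17Rik, Bach2os and Bach2it1 did not pass (limma adjusted p = 0.07, 0.058 and 0.31). Where counting did not use strand, reads of a gene and of its overlapping partner cannot be told apart, and intronic reads of unspliced transcripts were not separated from those of the overlapping transcripts.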
